A study of Rattus norvegicus with 233 samples.

Results

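Of the 84 real-time PCR assays run on single rat hepatocytes, 5 (A05, A11, A29, A56 and A66) are described here. They were chosen by their missing values: all 5 were listed as NULL together in the same 51 of 233 cells. That shared absence is therefore a description and not a result, and the levels below come from the 182 cells that had a value for at least 1 of the 5. The sources used here do not pair an assay number with a gene, so each transcript is called by its number, no sequence is printed, and the hepatocyte label could not be checked against marker genes.

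All cells came from rat liver and carry the label hepatocyte, and the Lieber-De Carli feeding protocol and a partial hepatectomy, the removal of part of the liver, are given for every group. The Lieber-De Carli diet is a liquid regimen in which rodents take ethanol with their food, and the control animals receive carbohydrate in its place. The 4 groups were control (carbohydrate) diet at 0 h, with 54 cells of 69 used, control diet at 24 h, with 43 of 55, ethanol diet at 0 h, with 46 of 55, and ethanol diet at 24 h, with 39 of 54. Times count from the resection, and the design text marks the 0 h cells LLM and the 24 h cells PHx. Strain, sex, age, the number of animals, the length of feeding and the animal that gave each cell are not stated. Because cells from the same animal share that source, a group was taken as 1 sample, no difference between groups was tested, and every SD is over cells.

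Hepatocytes are the main parenchymal cells of the liver and carry out most of its metabolism, including the oxidation of ethanol. After part of the liver is removed, the hepatocytes that remain leave quiescence, enter the cell cycle and restore the lost mass, while they keep making plasma proteins and handling nutrients. Chronic ethanol is known to impair this regeneration in rodents. In the assay used here, the threshold cycle (Ct) is the cycle at which the fluorescence of the product crosses a set level, so more template crosses earlier, and 1 cycle stands for a doubling if amplification is complete. Ct also depends on the primers and product of each assay, so a lower Ct of 1 assay than of another does not by itself mean more transcripts.

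The missing values came in runs of neighbouring cell numbers in every group. The 51 cells without any of the 5 fell into 18 runs, of which 12 held more than 1 cell and together took in 45 cells. In 0 h control cells they were cell 1 and cells 16 to 19, 45 to 49 and 64 to 68. In 24 h control cells they were cell 1 and cells 13 to 15, 30 to 31, 41 to 42 and 51 to 54. In 0 h ethanol cells they were cells 7, 19, 34 to 36 and 51 to 54, and in 24 h ethanol cells numbers 1, 15 to 19, 32 to 35, 42 to 45 and 53. The labels do not say what the cell numbers stand for. Each array took 96 samples, so 233 cells needed at least 3 arrays, and the array of each cell is not stated. What the runs follow was not tested.

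**Figure D1:**
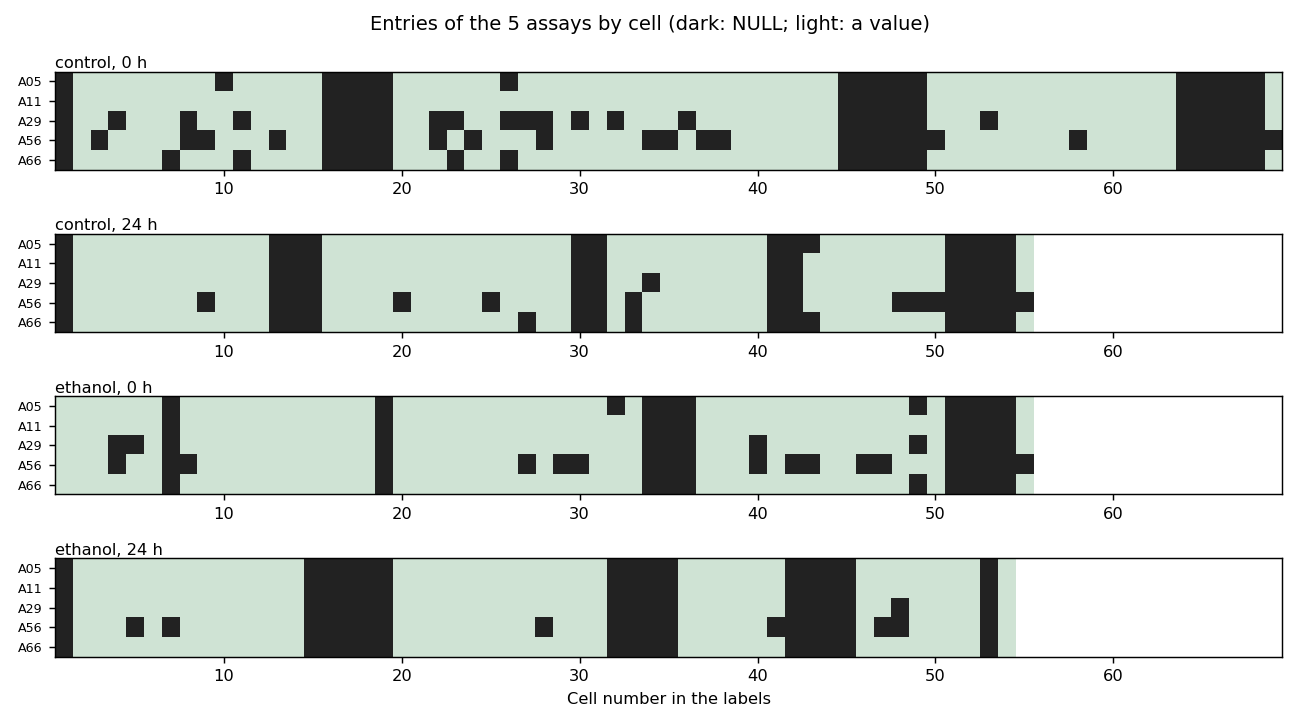
Entries of the 5 assays (rows) in each cell, by the cell number in the labels (x axis), with 1 panel per group; dark marks NULL and light a value. The dark columns that span all 5 rows are the 51 cells set aside, and the other dark squares are the missing values among the 182 cells.

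Pooled over the groups, the 51 cells were not poor in signal for the rest of the panel. Their median was 64 of the other 79 assays with a value, against 60 in the 182 cells, and their common-assay Ct had a median of 13.7 against 13.5. The common-assay Ct is a cell's median Ct over 28 assays detected in 80% or more of each group, none of them among the 5. By group, its median was higher in the cells set aside, except in 0 h ethanol cells (13.0 against 13.7). It was 14.7 against 14.2 in 0 h control, 13.4 against 13.1 in 24 h control and 13.5 against 13.0 in 24 h ethanol cells. The median number of other assays was lower only in 0 h control cells, at 48 against 50.

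Inside the 182 cells the 5 assays were found in most cells and were rarely missing together. Both follow in part from the choice of cells, which left out those with NULL in all 5. A11 had a value in all 182 cells, A05 in 177, A66 in 174, A29 in 164 and A56 in 143. The cells used were thus exactly the cells with a value for A11. All 5 had a value in 126 cells, 1 was missing in 44 cells, 2 in 10 and 3 in 2, and no cell lacked 4. The most frequent gap was A56 alone, in 32 cells, followed by A29 alone, in 8, and A29 with A56, in 6. The cells with all 5 made up 53.7% of 0 h control cells, 74.4% of 24 h control cells, 69.6% of 0 h ethanol cells and 84.6% of 24 h ethanol cells. Over the pooled groups, the cells without A56 or A29, alone or with another member, were weaker. The 39 cells without A56 had a median common-assay Ct of 15.2 and 48 other assays with a value, against 13.2 and 64 in the 143 cells with A56. For A29 the same values were 15.4 and 42.5 in the 18 cells without it, against 13.4 and 62 in the 164 cells with it. Of those 18 cells, 12 were 0 h control cells, where the common-assay Ct differed less, at 14.6 without A29 against 14.1 with it.

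A29 was missing mainly in 0 h control cells. It had a value in 77.8% of those cells (42 of 54, exact Clopper-Pearson 95% interval 64.4% to 88.0%). In 24 h control cells the share was 97.7% (42 of 43, 87.7% to 99.9%), in 0 h ethanol cells 91.3% (42 of 46, 79.2% to 97.6%) and in 24 h ethanol cells 97.4% (38 of 39, 86.5% to 99.9%). These intervals cover counting error over cells only. Whether these shares differ between groups was not tested. The animal that gave each cell is not stated, so the intervals cannot decide it. Within 0 h control cells, the 12 cells without A29 had a median of 48 other assays with a value, close to the 50.5 of the 42 cells with it. The other assays were also missing more often in 0 h control cells, with 35.9% NULL against 18.7% in 24 h control cells. By its higher share at 24 h on the control diet, A29 ranked 25 of 84 assays.

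A56 had the lowest share of the 5 in every group: 74.1% of 0 h control cells (40 of 54), 81.4% of 24 h control cells (35 of 43), 76.1% of 0 h ethanol cells (35 of 46) and 84.6% of 24 h ethanol cells (33 of 39). The shares of A05 lay between 95.7% and 100% and those of A66 between 92.6% and 100%. By the rule of a share differing by at least 20 percentage points, 0 of the 5 passed in any comparison. Over the whole panel in the same cells, 28.6% of assays were higher by that much at 24 h on the control diet, 21.4% at 24 h on the ethanol diet, 13.1% in 0 h ethanol cells and 3.57% in 24 h ethanol cells, and 0% were lower in each. A29 came nearest, with 19.9 points more at 24 h on the control diet.

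A05 had the lowest Ct of the panel. Its median over 177 cells was 6.20, with quartiles of 4.76 and 8.80, and A40 followed with a median of 8.44 over 229 cells. A05 was the lowest Ct of the cell in 130 of the 177 cells and among the lowest 3 in 163. Of 59 entries below Ct 5 in the whole table, 50 were A05, and the other 9 were spread over 9 assays with 1 entry each. The lowest Ct deposited, 2.5, occurred in 2 entries, 1 of them A05. The other members lay higher: A29 ranked 4 of 84 by median Ct (10.6), A11 ranked 23 (13.2), A56 ranked 26 (13.3) and A66 ranked 59 (15.2).

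In control cells most A05 values at 24 h lay below those at 0 h. Its Ct in 0 h control cells ran from 3.73 to 15.6 with a median of 8.02 (n = 52 cells), and in 24 h control cells from 3.48 to 14.0 with a median of 4.75 (n = 42). In ethanol cells it ran from 3.45 to 18.7 with a median of 7.13 at 0 h (n = 44), and from 2.5 to 14.4 with a median of 5.29 at 24 h (n = 39). The ranges of all groups overlapped, but the bulk of the cells moved: the upper quartile of 24 h control cells, 6.04, lay below the lower quartile of 0 h control cells, 6.70. Values below Ct 5 were found on the control diet in 2 of 52 cells at 0 h and 23 of 42 at 24 h, and on the ethanol diet in 9 of 44 cells at 0 h and 16 of 39 at 24 h.

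**Figure D2:**
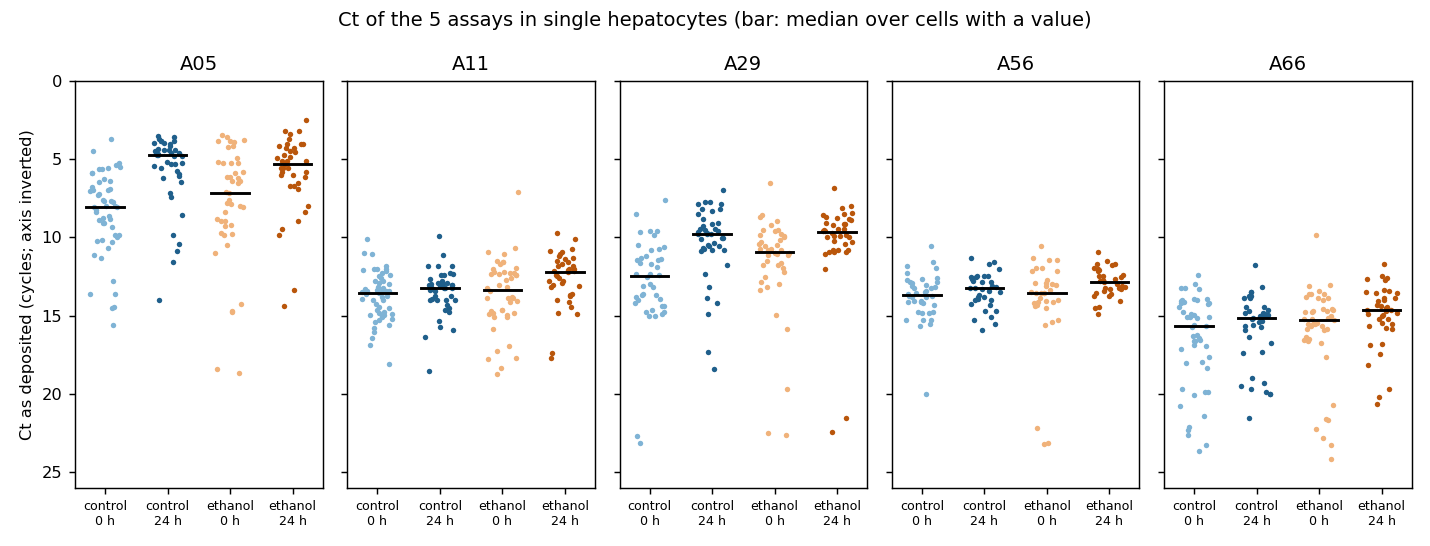
Deposited Ct (y axis, cycles, inverted so that more template is higher) of the 5 assays by group, with 1 point per cell with a value and a bar at the median. A05 has medians of 8.02, 4.75, 7.13 and 5.29 in the order shown, and A29 and A66 have tails of cells above Ct 20.

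A29 also had lower Ct values at 24 h on both diets. Its Ct ran from 7.62 to 23.2 with a median of 12.5 in 0 h control cells (n = 42), and from 6.95 to 18.4 with a median of 9.80 in 24 h control cells (n = 42). In ethanol cells the median was 10.9 at 0 h, with a range of 6.51 to 22.7 (n = 42), and 9.64 at 24 h, with a range of 6.86 to 22.4 (n = 38). The highest values were few and stood apart: above Ct 20 were 2 control cells, both at 0 h, and 4 ethanol cells, 2 at each time.

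A11, A56 and A66 differed less between groups in Ct. The median Ct of A11 was 13.5 in 0 h control cells (10.1 to 18.1), 13.2 in 24 h control cells (9.93 to 18.5), 13.3 in 0 h ethanol cells (7.08 to 18.7) and 12.2 in 24 h ethanol cells (9.73 to 17.7). The median Ct of A56 was 13.7 in 0 h control cells (10.5 to 20.0), 13.2 in 24 h control cells (11.3 to 15.9), 13.5 in 0 h ethanol cells (10.6 to 23.2) and 12.8 in 24 h ethanol cells (11.0 to 14.9). The median Ct of A66 was 15.7 in 0 h control cells (12.4 to 23.6), 15.2 in 24 h control cells (11.8 to 21.5), 15.3 in 0 h ethanol cells (9.82 to 24.2) and 14.7 in 24 h ethanol cells (11.7 to 20.7). For each of these 3 assays the 24 h ethanol cells had the lowest median and the 0 h control cells the highest, the order in which the common-assay Ct also ran, with group medians of 13.0 and 14.2, and its part in these Ct values was not tested. A66 had the longest tail, with 19 of 174 values above Ct 20, of which 8 were in control and 7 in 0 h ethanol cells and 2 in each group at 24 h.

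To set aside how much template a cell gave in all, each Ct was subtracted from the cell's common-assay Ct. The result is a relative level on the log2 scale, in which higher means more product of that assay relative to the cell's other transcripts. A difference of group means of at least 1 was taken as the size rule. The cells differed in overall signal as the groups did: the median number of the other 79 assays with a value was 50 in 0 h control cells, 67 in 24 h control cells, 58.5 in 0 h ethanol cells and 68 in 24 h ethanol cells.

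The first comparison set 24 h against 0 h on the control diet, the course of the transcripts after resection without ethanol. A05 was at 5.73 ± 2.68 (SD, n = 52 cells) at 0 h and at 7.99 ± 1.05 (SD, n = 42) at 24 h, a difference of 2.26, and 40 of the 42 cells at 24 h lay above the median of the cells at 0 h. A29 was at 1.33 ± 2.63 (SD, n = 42) at 0 h and at 3.25 ± 1.30 (SD, n = 42) at 24 h, a difference of 1.93, with 38 of 42 cells above the 0 h median. Both differences were smaller than the SD over cells at 0 h and larger than that at 24 h. A66 differed by 0.20, A11 by -0.28 and A56 by -0.55, each by less than the SD over cells, and A11 and A56 turned sign without scaling, to 0.29 and 0.38. So 2 of the 5 were higher by at least 1 and 0 were lower, where 26.7% of the 75 assays compared were higher and 5.33% lower. The median of the 5 was 0.20, close to the 0.24 of all 75.

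The differences of A05 and A29 were also taken inside windows of overall signal, chosen after the data were seen. The windows narrow the signal but do not match the groups. Over all control cells used, the number of other assays with a value had quartiles of 43 and 58.75 at 0 h and of 60 and 70.5 at 24 h. Among cells with a common-assay Ct from 13 to 15 (24 at 0 h and 16 at 24 h) A05 differed by 2.83 and A29 by 2.17. Among cells with a value for 50 to 70 of the other assays (27 and 28 cells) A05 differed by 1.70 and A29 by 1.23. With a stricter set of 12 common assays, detected in 90% or more of each group, A05 differed by 1.37 and A29 by 0.97, below the size rule, while A11 (-1.19) and A56 (-1.58) passed it downward. The count of 2 higher and 0 lower thus became 1 higher and 2 lower with that scaling. The share of the whole panel past the rule with that scaling was not computed.

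On the ethanol diet, where the same question was asked of ethanol-fed animals, none of the 5 passed the size rule. A05 was at 6.49 ± 2.41 (SD, n = 44 cells) at 0 h and 7.32 ± 1.54 (SD, n = 39) at 24 h, a difference of 0.83, and 31 of 39 cells at 24 h lay above the 0 h median. A29 was at 2.29 ± 2.81 (SD, n = 42) and 2.87 ± 2.03 (SD, n = 38), a difference of 0.58. A56 differed by 0.51, A66 by 0.08 and A11 by 0.01, all within the SD over cells. Over the 79 assays compared, 11.4% were higher by at least 1 and 3.8% lower. The median of the 5 was 0.51 and that of all assays 0.08. In the window of 50 to 70 other assays (30 and 20 cells) all 5 passed the size rule, with 1.22 for A05 and 1.10 for A29. How many assays of the whole panel passed in that window was not computed. With medians over cells A05 also passed, at 1.03. A56 passed without ethanol cells 8 to 18 of the 0 h group, at 1.03.

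Between diets at 0 h, none of the 5 passed the size rule. A29 was higher in ethanol cells by 0.97, A05 by 0.76, A66 by 0.68 and A11 by 0.10, and A56 was lower, with a difference of -0.69. Over the 75 assays compared, 14.7% were higher in ethanol cells by at least 1 and 1.33% lower, around a median of 0.19. In the window of 50 to 70 other assays A05 differed by 0.10 and A29 by 0.29, in both cases less than over all cells used. A66 turned in that window, to -0.84. With 12 common assays A56 passed the rule, at -1.39, and A05 differed by 0.13 and A29 by 0.28. With 1 stretch of cell numbers left out, the size rule was passed by A05 without control cells 2 to 15 (1.21) or ethanol cells 8 to 18 (1.33), and by A29 without control cells 50 to 63 (1.49), ethanol cells 1 to 6 (1.06) or ethanol cells 37 to 50 (1.10). Without ethanol cells 8 to 18 it was also passed by A56 (-1.21) and A66 (1.59).

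At 24 h the diets also differed by less than 1 for all 5. A66 was higher in ethanol cells by 0.56, A11 by 0.39 and A56 by 0.37, while A05 and A29 were lower, with differences of -0.67 and -0.38, the latter turning to 0.12 without scaling. In cells with a common-assay Ct from 13 to 15, A05 (-1.67) and A56 (1.15) passed the size rule, and A66 did without control cells 43 to 50, at 1.06. Of 82 assays, 0% were higher by at least 1 and 6.1% were lower, around a median of 0.05. For A05, 9 of 39 ethanol cells lay above the median of the control cells. For A11, 29 of 39 ethanol cells did.

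**Figure D3:**
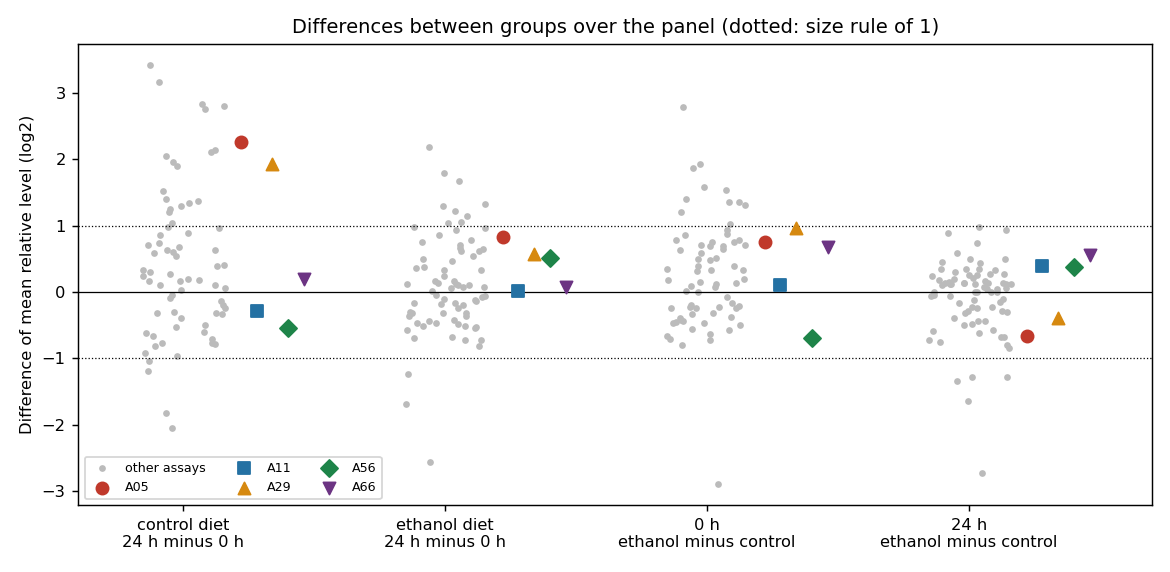
Difference of mean relative level (y axis, log2) of every assay compared, in grey, and of the 5 assays, in colour, for the 4 comparisons on the x axis; dotted lines mark the size rule of 1. A05 (2.26) and A29 (1.93) pass the rule in the control diet comparison, and none of the 5 passes it in the other 3.

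The order of the groups by mean relative level, with the scaling used here, was the same for A05 and A29: 24 h control cells highest, then 24 h ethanol cells, 0 h ethanol cells and 0 h control cells. Neighbours in that order differed by 0.67, 0.83 and 0.76 for A05 and by 0.38, 0.58 and 0.97 for A29, each less than the SD over cells of either group. The 24 h minus 0 h difference on the ethanol diet minus that on the control diet was -1.43 for A05 and -1.35 for A29. It was 1.06 for A56, 0.29 for A11 and -0.12 for A66, which turned to 0.33 without scaling. Here 1 of the 5 was higher and 2 were lower by at least 1, where 9.33% of the 75 assays were higher and 25.3% lower. This quantity contains the distance between diets at 0 h. In the window of 50 to 70 other assays it was -0.48 for A05 and -0.13 for A29, and A11 (1.13), A56 (1.41) and A66 (1.68) passed the rule upward, so 3 were higher and 0 lower. With 12 common assays A11 (1.02) and A56 (1.80) were higher and none was lower, with -0.71 for A05 and -0.61 for A29. The shares of the whole panel in that window and with 12 common assays were not computed. Without scaling none of the 5 passed, with -0.84 for A05, -0.997 for A29 and 0.86 for A56. For A56 it was 0.41 with values above Ct 20 left out, of which 0 h ethanol cells had 3 and 0 h control cells 1. Leaving out 1 stretch of cell numbers brought A05 below the rule in 2 cases, A29 in 2 and A56 in 5: A05 was at -0.62 without ethanol cells 37 to 50 of the 0 h group and at -0.97 without ethanol cells 20 to 31 of the 24 h group. A29 was at -0.98 without control cells 20 to 44 and at -0.93 without ethanol cells 8 to 18, both of the 0 h group. A56 was lowest, at 0.44, without ethanol cells 20 to 33 of the 0 h group, and at 0.98 without control cells 20 to 44 of that time. Of the 24 h group, A56 was at 0.94 without control cells 43 to 50, at 0.84 without ethanol cells 2 to 14 and at 0.66 without ethanol cells 20 to 31. A66 passed the rule, at -1.02, without ethanol cells 8 to 18 of the 0 h group.

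The relative levels of most of the 5 differed less among cells at 24 h, most clearly for A05 and A29 on the control diet. The SD over cells of the relative level at 24 h was 0.39 times that at 0 h for A05 and 0.49 times for A29, which ranked 3 and 6 from the lowest of 75 assays with a median ratio of 0.82. A66 had a ratio of 0.85, A11 of 0.92 and A56 of 1.20, the highest of the 5. On the ethanol diet the ratios were 0.50 for A56, 0.57 for A66, 0.64 for A05, 0.72 for A29 and 0.77 for A11, around a panel median of 0.73. A lower SD of the relative level at 24 h was the rule over the panel, with 50 of 75 assays on the control and 62 of 75 on the ethanol diet. In deposited Ct on the control diet the SD fell less, from 2.69 at 0 h to 2.40 at 24 h for A05 and from 2.97 to 2.43 for A29. The SD of the common-assay Ct rose there, from 1.66 to 2.02.

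The runs of missing cells split each group into stretches of consecutive cell numbers, which were compared as a check on sources that the labels do not name. The 15 stretches of 5 or more cells are not groups of the study and not replicates. They were cut at the NULLs that chose the 5 assays, so ranges that stay apart are a description only. Stretch means were computed for the 5 assays only, so how often such ranges stay apart over the whole panel is not known. The mean relative level of A05 ran from 4.63 to 7.10 over 3 stretches of 0 h control cells and from 7.25 to 8.76 over 4 stretches of 24 h control cells, and these ranges did not overlap. In ethanol cells it ran from 4.79 to 8.42 at 0 h and from 6.29 to 8.12 at 24 h, over 4 stretches each, and the range at 24 h lay inside that at 0 h. In control cells A29 ran from 0.78 to 2.49 at 0 h and from 2.54 to 3.75 at 24 h, ranges that nearly touched. In ethanol cells it ran from 1.44 to 3.48 at 0 h and from 1.67 to 3.35 at 24 h. The stretch means of A11, A56 and A66 overlapped between 0 h and 24 h on both diets except A56 on the control diet, which ran from 0.00 to 0.25 at 0 h and from -1.11 to -0.14 at 24 h.

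Within a group the stretches differed by up to several cycles. For each of the 5, the stretch means within 0 h ethanol cells lay further apart than the group means did. In 0 h ethanol cells A05 was at 7.66 in cells 1 to 6, 4.79 in cells 8 to 18, 5.95 in cells 20 to 33 and 8.42 in cells 37 to 50. A29 ran differently there, at 1.44, 3.48, 2.33 and 1.96 in the same stretches. Leaving out 1 stretch at a time moved the control diet difference of A05 between 1.85 and 2.71 and that of A29 between 1.55 and 2.45, always past the size rule. The ethanol diet difference of A05 ran from 0.26 to 1.64, and it passed the size rule without ethanol cells 1 to 6 at 0 h (1.01), without cells 37 to 50 at 0 h (1.64) and without cells 20 to 31 at 24 h (1.29).

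**Figure D4:**
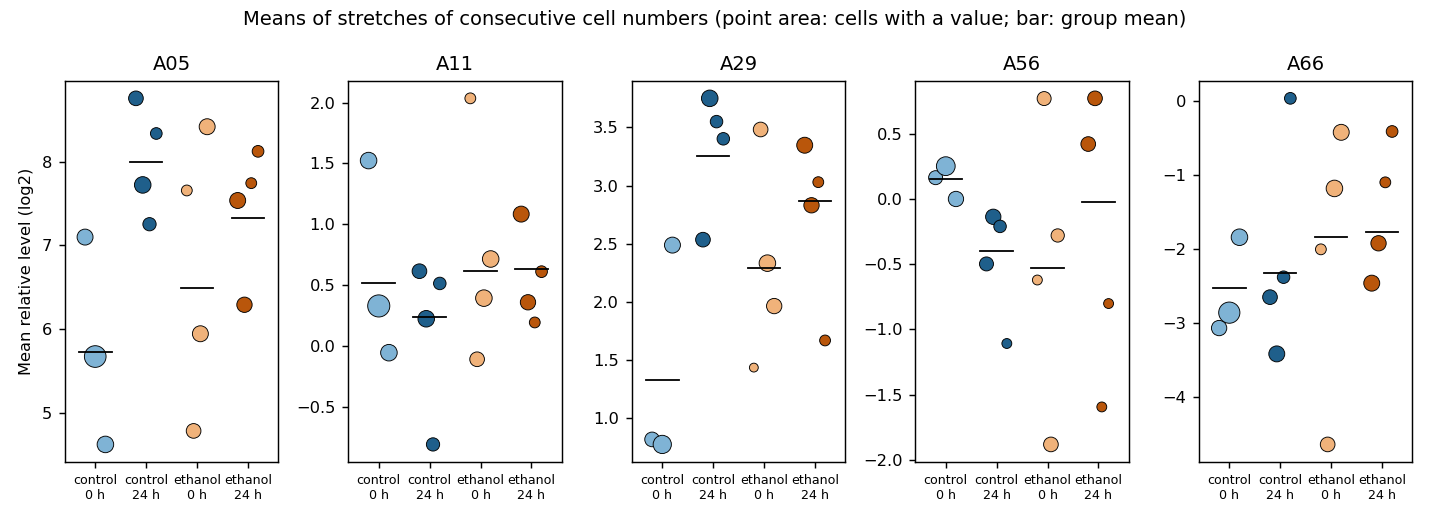
Mean relative level (y axis, log2, scaled separately in each panel) of the 5 assays in each stretch of at least 5 consecutive cell numbers; point area follows the number of cells with a value, and the bar is the group mean. For A05 and A29 the control points at 24 h all lie above those at 0 h, while the ethanol points of both times overlap. The other assays of the panel were not compared in this way.

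The 5 assays were missing together in the 51 cells, but their relative levels in the other cells were only loosely related. With group means removed, Pearson's r over cells with both values was 0.47 for A05 and A11 (n = 177 cells), 0.45 for A05 and A29 (n = 161), 0.39 for A11 and A66 (n = 174) and -0.14 for A05 and A56 (n = 138). Over the 10 pairs the median was 0.21, against 0.08 over 2993 pairs of the other assays, whose quartiles were -0.05 and 0.24. The cells of a pair share their reaction, their overall signal and the common-assay Ct that both levels were taken from, so these are descriptions. In Ct without scaling the median of the 10 pairs was 0.31, below the 0.34 of the other pairs.

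The pair A05 and A11 had the highest r of the 10, and it varied between groups. Spearman's rho was 0.48, and r was 0.72 in 0 h control cells (n = 52), 0.20 in 24 h control cells (n = 42), 0.34 in 0 h ethanol cells (n = 44) and 0.29 in 24 h ethanol cells (n = 39). The pair A05 and A29, in contrast, rested on a few cells: Spearman's rho was 0.18, and r was 0.05 once A29 values above Ct 20 were left out. A56 also had low r with the others, at 0.11 with A11, 0.18 with A29 and 0.00 with A66, but A11 with A29 was about as low, at 0.19. Within groups, r of A56 with A29 ran from -0.06 to 0.46, the highest in 0 h ethanol cells.

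**Figure D5:**
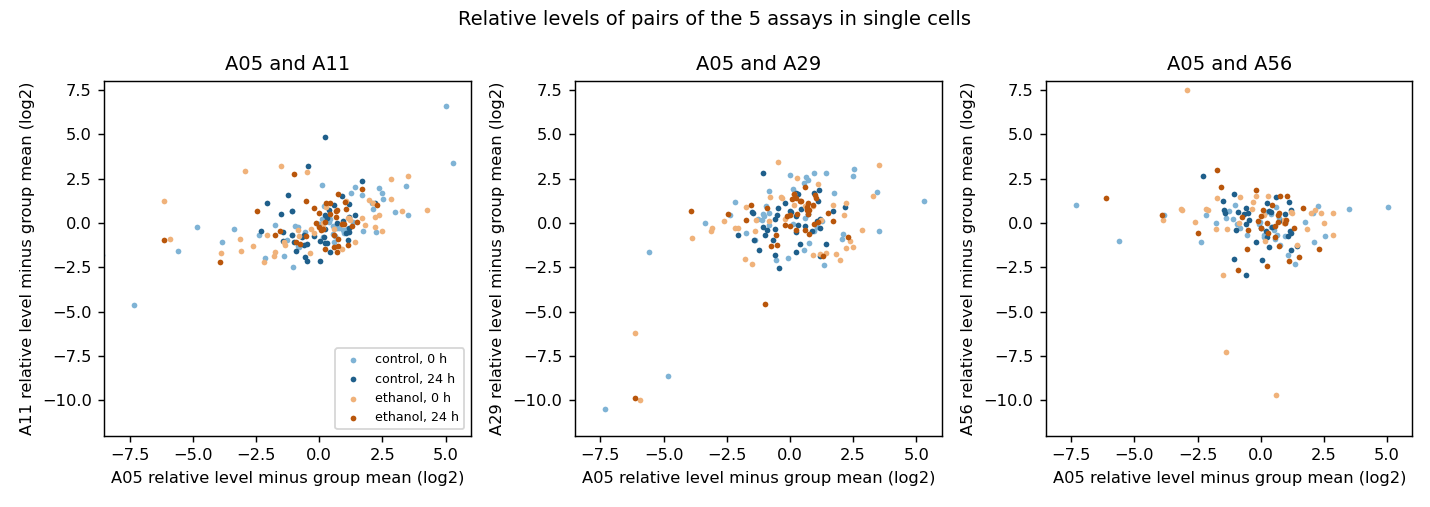
Relative level minus its group mean (log2 on both axes) of A05 against A11, A29 and A56 in single cells, coloured by group. Pearson's r is 0.47, 0.45 and -0.14 from left to right, and a few cells at the lower left carry that of A05 and A29.

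A member and an outside assay had a median r of 0.14 over 393 pairs, below the 0.21 of the 10 pairs of members. With Spearman's rho the medians were closer, at 0.11 and 0.14. In Ct without scaling the order turned, with 0.35 for a member and an outside assay and 0.31 for pairs of members. With 79 outside assays against 4 fellow members to choose from, the single assay most like each member lay outside the set. The assay most like A05 was A14, with r of 0.74 (Spearman's rho 0.65, n = 170 cells), and within groups r was 0.85, 0.20, 0.69 and 0.80 in the order control 0 h, control 24 h, ethanol 0 h and ethanol 24 h. A11 was most like A74, with r of 0.63 (rho 0.55, n = 182 cells) and 0.42 to 0.69 within groups. A29 was most like A49 (r 0.53, rho 0.32, n = 81 cells), A56 most like A48 (r 0.54, rho 0.15, n = 47 cells) and A66 most like A76 (r 0.66, rho 0.56, n = 32 cells). The last 3 rest on assays with a value in fewer cells, and for A56 the rank correlation was much lower than r. Ranked among the other assays by r, the nearest fellow member came 9 for A05, 6 for A11 and A29, 22 for A56 and 16 for A66.

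The 5 also differed in how they followed a cell's overall signal. With group means removed, Ct rose by 0.97 cycles per cycle of common-assay Ct for A05 (r 0.69) and by 0.92 for A29 (r 0.63), close to the slope of 1 that the scaling assumes. It rose by 0.62 for A11 (r 0.73), 0.61 for A56 (r 0.55) and 0.28 for A66 (r 0.21), so the relative levels of these 3 were higher in cells with less signal in the common assays.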

How the data were processed

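The labels' protocols describe laser capture of single hepatocytes and reverse transcription of the lysate; the cDNA was pre-amplified for 22 cycles and run for 30 cycles of SYBR Green PCR. The authors deposited 1 Ct per assay and cell, not normalized and on an inverted log2 scale of template; the software and the rule for NULL are not stated. Of 19572 entries 26.1% were NULL, and no columns were identical. Columns were matched to cells by their descriptions in the labels.

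Cells with NULL in all 5 assays were set aside. Relative level was the cell's median Ct over 28 common assays (NULL as Ct 30) minus the assay's Ct. Means are over cells with a value, with at least 10 cells per group and 30 per correlation. The nearest assay was the one with the highest Pearson's r. The calculation was tested on simulated data. Python 3.11.15, pandas 2.3.3 and scipy 1.17.1 were used. The alternatives covered scaling, averaging, NULL values, Ct limits and cell windows. The members, lists and rules were chosen with earlier results of these data known. The precision is limited by the unknown number of animals.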

Additional observations from a re-analysis of the deposited data

Results flagged for a closer look

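A56 differed between 24 h and 0 h in opposite directions on the 2 diets, by -0.55 with control and 0.51 with ethanol feeding, which is 1.06 apart and was not tested. Its ethanol value was -0.12 with values above Ct 20 left out. A11 also had opposite signs, -0.28 and 0.01, a difference of 0.29 that was not tested either and is far below the SD over cells.

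The 51 cells without any of the 5 assays enter none of the comparisons above, and they gave a signal for the rest of the panel, with a median of 64 of the other 79 assays with a value per cell.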

How the results depend on the processing

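Over 25 differences of relative level, 447 of 450 values under alternatives lay within 1 SD over cells of the value reported, and no value past the size rule changed sign. The exceptions had NULL entered at Ct 30, so that missing cells count as low: A29 differed by 5.23 and A56 by 0.93 on the control diet, and the diet difference of A29 was -3.70. An SD over cells is a wide mark for a difference of means, so lying within it says little. With NULL at Ct 30, A29 between diets at 0 h moved from 0.97 to 3.31 and still lay within it. The number of the 5 past the size rule moved more. In ethanol cells at 24 h against 0 h, where it was 0, it was 3 with a size rule of 0.5 and with NULL at Ct 30, 5 without scaling and in cells with 50 to 70 other assays, 4 in cells with a common-assay Ct of 13 to 15, 1 with scaling to all other assays and with medians, and 0 to 1 with a stretch left out. Between diets at 0 h it was 4 with a rule of 0.5, 2 with NULL at Ct 30, 1 without scaling, without cells above common-assay Ct 17 and with 12 common assays, and 0 to 3 with a stretch left out. Between diets at 24 h it was 2 with a rule of 0.5 and in cells at Ct 13 to 15, 1 with NULL at Ct 30 and 0 to 1 with a stretch left out. For the diet difference it was 0 without scaling, 1 with medians, NULL at Ct 30 or values above Ct 20 left out, and 1 to 3 with a stretch left out. The cause of these moves was not tested. On the control diet it was 2, but 3 with a rule of 0.5 and 3 with 12 common assays, which were then A05 higher and A11 and A56 lower. Over the whole panel, assays past the size rule were counted only with the main scaling and without scaling.

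Without scaling, the median difference over the panel was 0.83 on the control and 0.87 on the ethanol diet for 24 h against 0 h, and 0.52 at 0 h and 0.45 at 24 h between diets. The assays past the rule were then 33 higher and 1 lower on the ethanol diet, against 9 and 3 with scaling, 30 and 2 on the control diet, against 20 and 4, and 7 and 3 between diets at 24 h, against 0 and 5. Relative to the panel median, A05 differed by 1.93 and A29 by 1.61 on the control diet. A11 and A56 turned sign there without scaling, to 0.29 and 0.38.

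Over all deposited cells the shares were 72.2% to 80.0% for A05, 72.2% to 83.6% for A11, 60.9% to 76.4% for A29, 58.0% to 63.6% for A56 and 72.2% to 81.8% for A66. On the ethanol diet these shares were lower at 24 h than at 0 h for each member. They were 72.2% against 80.0% for A05, 72.2% against 83.6% for A11 and 70.4% against 76.4% for A29. For A56 they were 61.1% against 63.6%, and for A66 72.2% against 81.8%. Among the cells used there, A11 was at 100% at both times and the others were higher at 24 h. On the control diet only A11 was lower at 24 h (78.2% against 78.3%). Of 60 alternative shares 22 were counted as moved. Of 80 alternative correlations 25 moved by more than the SD over the groups. The 80 include the within-group values from which that SD was taken, so this count says little. The windows and stretches were added after the data were seen. No paired analysis was possible because a cell number names 1 cell of its group and links it to no animal.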

Other observations

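The 51 cells set aside also stood apart in assays that the rule did not use. These were picked after their values were seen, out of 79 assays. A77 had a value in 92.2% of the 51 cells and 47.8% of the 182, and the share was higher in the 51 cells in each group, at 100%, 83.3%, 77.8% and 100% against 44.4%, 53.5%, 47.8% and 46.2% in the order control 0 h, control 24 h, ethanol 0 h and ethanol 24 h. A33 ran the other way, with a value in 68.6% of the 51 cells and 96.7% of the 182, and was lower in each group, at 53.3%, 75.0%, 55.6% and 86.7% against 94.4%, 95.3%, 97.8% and 100%. Among cells with a value, A58 was at -1.94 ± 2.16 (SD, n = 50 cells) in the 51 cells and at -5.19 ± 2.85 (SD, n = 143) in the 182, and A74 at -0.84 ± 2.48 (SD, n = 50) and 1.88 ± 2.05 (SD, n = 182). Past the size rule of 1 in relative level, 8 of the 79 assays were higher in the 51 cells and 6 lower, around a median difference of -0.08.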
